A study of Homo sapiens with 12 samples.

Results

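The nectins are immunoglobulin-like adhesion molecules that hold neighbouring epithelial cells together without needing calcium, and PVR and afadin belong to the same adhesion system. The members were the 6 rows of the count table whose Ensembl identifiers map to NECTIN1, NECTIN2, NECTIN3, NECTIN4, PVR and AFDN (older names PVRL1 to PVRL4 for the nectins and MLLT4 for AFDN), of 58233 genes in all. All 6 passed the filter on low counts, which left 15749 genes.

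As background, nectins on one cell bind nectins on the next: nectin-3 binds nectin-1, nectin-2 and PVR, and nectin-4 binds nectin-1. The tail of each nectin binds afadin, the product of AFDN, a scaffold that holds actin filaments and couples nectins to the cadherin complex. PVR (CD155, the poliovirus receptor) is a nectin-like molecule that does not bind afadin and is a ligand of the lymphocyte receptors CD226, TIGIT and CD96. Cadherins need calcium to adhere, and EDTA chelates divalent cations such as calcium.

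The data were 12 polyA RNA-seq libraries, in duplicate, of MCF10-A, a human mammary epithelial line that is not tumour-derived. The 6 groups were Addback EDTA, Addback NA, B4-4 EDTA, B4-4 NA, Vector EDTA and Vector NA, where Addback, B4-4 and Vector name derivatives of the line and EDTA and NA are treatment labels. In every group, the cells had been detached with trypsin and then held for 3 hours without serum on poly-HEMA plates, which prevent attachment. What NA stands for, the dose of EDTA, how the derivatives were made, whether each is 1 clone and whether duplicates came from separate cultures are points not given in the sources used, and the labels give passages as unknown. P-values therefore measure only the spread between these libraries, which may be technical.

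Totals ran from 15685376 to 22156173 counts. ITGB4, which encodes the integrin beta 4 chain and checks the derivative labels, stood at 1060 to 1525 CPM in Addback, 182 to 395 CPM in B4-4 and 1678 to 1850 CPM in Vector; CPM are counts scaled to the TMM-adjusted library size. The typical difference between duplicates, as a biological coefficient of variation, was 18.8% in Addback EDTA and 24.1% in B4-4 NA, against 3.00% to 10.2% in the other groups. The library Addback EDTA 2 carries lane 7 in its label and the other 11 carry lane 8. All 7 epithelial markers were present, with a summed level of 8204 to 12800 CPM. The lists for other cell types held genes at or near 0 beside genes with many counts. PTPRC had at most 1 count, CD3E and CDH5 had 0, and COL1A2 and COL3A1 at most 3, whereas CD14 had 137 to 976 counts, DCN 15 to 912, PECAM1 63 to 586 and COL1A1 187 to 390. The summed levels ran from 14.1 to 65.5 CPM for the fibroblast list, 8.12 to 56.7 CPM for the leukocyte list and 3.35 to 34.3 CPM for the endothelial list. In bulk RNA, fewer cells of a type and less RNA per cell cannot be told apart.

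Per kilobase of exon, NECTIN1 had the highest level of the 6 genes, with a median over the 12 libraries of 41.3 CPM per kb. PVR followed at 17.5, AFDN at 13.4, NECTIN2 at 9.68, NECTIN4 at 3.21 and NECTIN3 at 2.59 CPM per kb. NECTIN4 and NECTIN3 overlapped in their ranges, 1.41 to 5.67 against 1.85 to 3.82 CPM per kb. PVR ran from 8.62 to 36.2 CPM per kb, across the whole range of AFDN (10.3 to 16.9). It also reached into the ranges of NECTIN2 (6.57 to 15.0) and NECTIN1 (27.9 to 61.6). In Vector EDTA the order turned, with PVR at 8.62 and 8.90 and AFDN at 11.6 and 10.3 CPM per kb. AFDN also lay above PVR in B4-4 NA 2 (14.9 against 13.3 CPM per kb). By a narrow margin it did so in Vector NA 1 (16.92 against 16.87) and Vector NA 2 (16.55 against 16.39). The ratio of the highest to the lowest library was 4.20 for PVR and 4.02 for NECTIN4, and lay between 1.64 for AFDN and 2.29 for NECTIN2 in the other 4 genes. PVR and NECTIN4 thus varied most across the study. NECTIN4 also rested on the fewest counts, 87 to 346 per library, against 655 to 2394 for PVR.

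The 5 surface molecules summed to 68.6 to 70.3 CPM per kb in Addback EDTA, 71.4 to 72.4 in Addback NA, 105 to 107 in B4-4 EDTA, 73.9 to 95.1 in B4-4 NA, 59.5 to 64.2 in Vector EDTA and 94.3 to 96.7 in Vector NA. B4-4 EDTA was thus above and Vector EDTA below every other group. NECTIN1 made up 40.6% to 66.4% of the sum in every library. The share of PVR was 26.8% and 37.9% in Addback EDTA, 26.5% and 25.1% in Addback NA, 33.4% and 33.9% in B4-4 EDTA, 17.5% and 18.1% in B4-4 NA, 14.5% and 13.9% in Vector EDTA, and 17.4% in both Vector NA libraries. The shares were descriptive and were not tested.

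**Figure D1:**
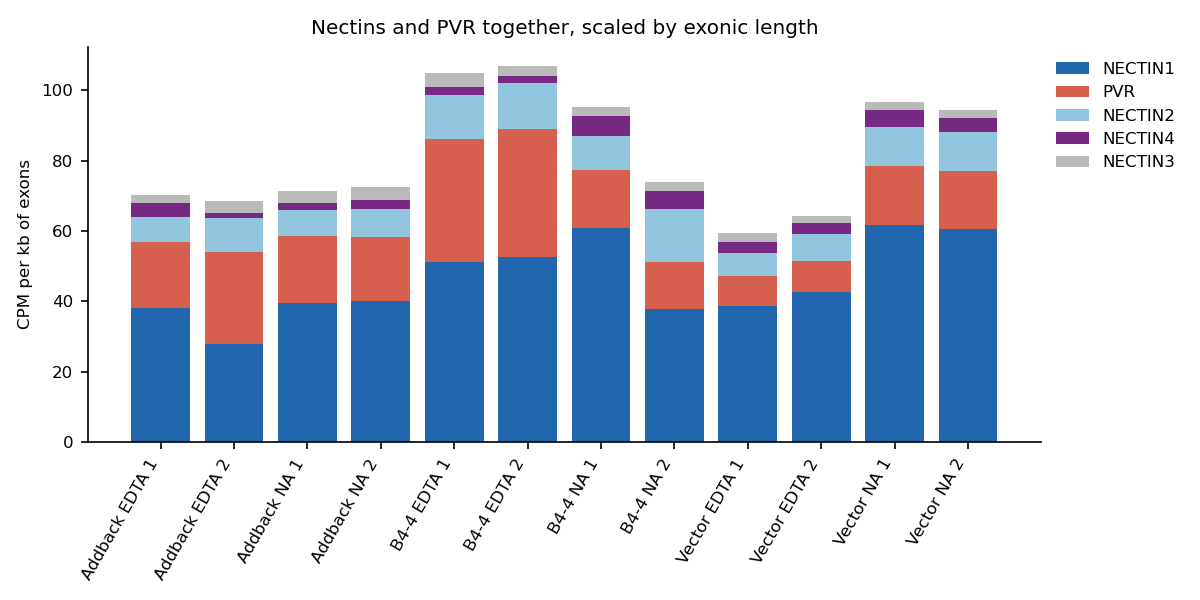
Summed level of NECTIN1, NECTIN2, NECTIN3, NECTIN4 and PVR in each library, in CPM per kb of exon, with each gene as a coloured segment. The B4-4 EDTA bars are the tallest, at 105 and 107 CPM per kb, and the PVR segment is largest there and smallest in Vector EDTA.

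PVR (ENSG00000073008, chromosome 19, 44643798 to 44663583, plus strand, GRCh38) had 66.3 and 91.5 CPM in Addback EDTA, 66.7 and 64.0 CPM in Addback NA, 123 and 127 CPM in B4-4 EDTA, 58.5 and 46.9 CPM in B4-4 NA, 30.3 and 31.3 CPM in Vector EDTA, and 59.4 and 57.7 CPM in Vector NA. Both B4-4 EDTA libraries lay above all others, and both Vector EDTA libraries below all others. From low to high, Vector EDTA stood apart from B4-4 NA and Vector NA, which overlapped. Addback NA and Addback EDTA came next and overlapped with each other, and B4-4 EDTA stood apart at the top. In the files' annotation, CEACAM19 on the same strand shares 121 exonic bases with PVR and had 48 to 112 counts, so reads of that stretch are uncertain.

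NECTIN2 (ENSG00000130202, chromosome 19, 44846175 to 44889228, plus strand), which binds itself and nectin-3, lies 182591 bases from PVR. It had 26.8 and 37.0 CPM in Addback EDTA, 27.6 and 30.0 CPM in Addback NA, 47.0 and 49.4 CPM in B4-4 EDTA, 35.5 and 56.3 CPM in B4-4 NA, 24.6 and 28.2 CPM in Vector EDTA, and 41.8 and 41.6 CPM in Vector NA. Vector EDTA, Addback NA and Addback EDTA overlapped at the low end, and Vector NA, B4-4 NA and B4-4 EDTA overlapped at the high end. B4-4 NA 1 lay below Addback EDTA 2, so B4-4 NA reached into the low end. The B4-4 NA duplicates differed by 0.66 on the log2 scale, where the median gene differed by 0.25.

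NECTIN1 (ENSG00000110400, chromosome 11, 119623408 to 119729084, minus strand) encodes a receptor that binds nectin-3 and nectin-4. It had 293 and 215 CPM in Addback EDTA, 305 and 308 CPM in Addback NA, 394 and 406 CPM in B4-4 EDTA, 468 and 292 CPM in B4-4 NA, 297 and 328 CPM in Vector EDTA, and 474 and 466 CPM in Vector NA. By group mean, Addback EDTA was lowest and stood apart from Addback NA, the next, and Vector NA was highest and stood apart from B4-4 EDTA. The 4 groups between them overlapped with their neighbours. The B4-4 NA duplicates, 0.68 apart on the log2 scale, reached into the range of both ends.

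NECTIN3 (ENSG00000177707, chromosome 3, 111070071 to 111275563, plus strand), whose product binds both nectin-1 and PVR, had 14.6 and 21.3 CPM in Addback EDTA, 21.6 and 22.8 CPM in Addback NA, 23.6 and 18.8 CPM in B4-4 EDTA, 15.6 and 15.7 CPM in B4-4 NA, 16.3 and 11.4 CPM in Vector EDTA, and 14.6 and 13.3 CPM in Vector NA. The Vector NA libraries were below both B4-4 NA libraries and both Addback NA libraries. The other neighbours in the order overlapped.

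NECTIN4 (ENSG00000143217, chromosome 1, 161070995 to 161089599, minus strand) encodes the receptor that binds nectin-1 and has been described in the clustering of detached epithelial cells. It had 13.7 and 4.95 CPM in Addback EDTA, 7.22 and 8.62 CPM in Addback NA, 8.12 and 6.28 CPM in B4-4 EDTA, 19.9 and 17.7 CPM in B4-4 NA, 10.8 and 11.7 CPM in Vector EDTA, and 16.5 and 14.5 CPM in Vector NA. B4-4 NA and, below it, Vector NA stood apart from the other 4 groups, which overlapped. The Addback EDTA duplicates were the lowest and the highest library of those 4 groups and differed by 1.45 on the log2 scale, against 0.17 for the median gene.

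AFDN (ENSG00000130396, chromosome 6, 167826922 to 167972023, plus strand), the afadin gene, had 143 and 180 CPM in Addback EDTA, 188 and 166 CPM in Addback NA, 218 and 213 CPM in B4-4 EDTA, 169 and 205 CPM in B4-4 NA, 159 and 141 CPM in Vector EDTA, and 232 and 227 CPM in Vector NA. Vector NA was highest and B4-4 EDTA next, each apart from the rest, and the other 4 groups overlapped with their neighbours.

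**Figure D2:**
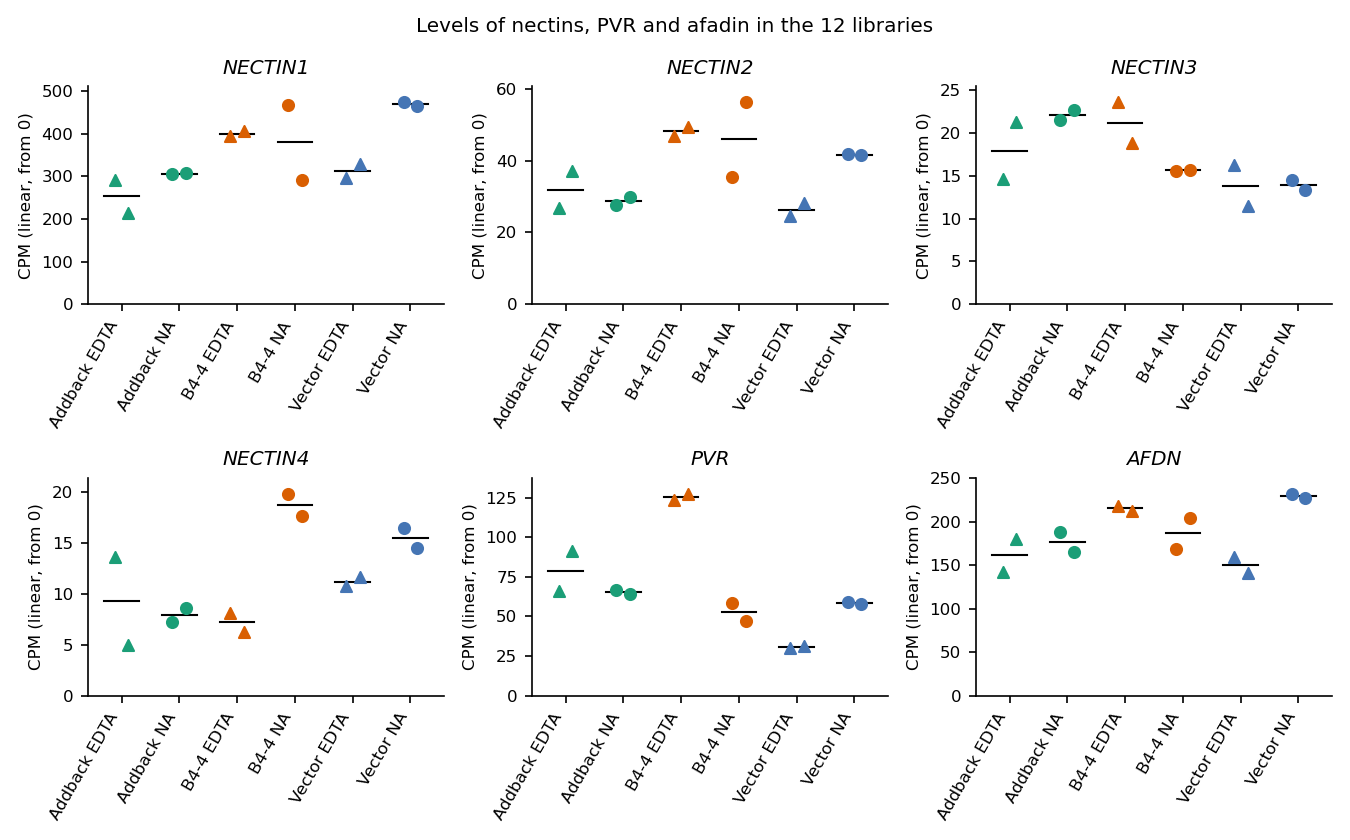
CPM of each of the 6 genes in every library, with a panel per gene and the groups in the order Addback, B4-4 and Vector, EDTA left of NA. Points are libraries and horizontal lines are group means of 2 libraries. PVR is highest in B4-4 EDTA and lowest in Vector EDTA, and NECTIN4 is highest in B4-4 NA.

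RefSeq promoter windows (GRCh38.p14, 250 bases before to 50 after the start site) were found for 5 of the 6 genes, without NECTIN1. The windows of PVR and its neighbour NECTIN2, both higher in B4-4 EDTA than in Vector EDTA, are shown with that of NECTIN4, which fell where PVR rose in B4-4 cells. Each is printed 5′ to 3′ on the gene's own strand, as chr19:44643660-44643959 (plus) for PVR, chr19:44846047-44846346 (plus) for NECTIN2 and chr1:161089509-161089808 (minus) for NECTIN4. Capitals mark matches to the letters searched.
PVR: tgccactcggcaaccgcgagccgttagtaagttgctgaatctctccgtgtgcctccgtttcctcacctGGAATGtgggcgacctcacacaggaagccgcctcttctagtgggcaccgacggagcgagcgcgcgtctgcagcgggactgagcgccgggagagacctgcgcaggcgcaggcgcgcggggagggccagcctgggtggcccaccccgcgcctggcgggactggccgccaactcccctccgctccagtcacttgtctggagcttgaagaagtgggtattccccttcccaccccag
NECTIN2: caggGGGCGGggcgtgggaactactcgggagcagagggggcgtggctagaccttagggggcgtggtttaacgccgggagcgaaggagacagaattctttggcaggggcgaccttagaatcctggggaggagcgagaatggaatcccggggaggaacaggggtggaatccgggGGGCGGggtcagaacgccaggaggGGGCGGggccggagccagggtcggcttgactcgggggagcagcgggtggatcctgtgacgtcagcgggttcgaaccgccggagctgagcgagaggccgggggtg
NECTIN4: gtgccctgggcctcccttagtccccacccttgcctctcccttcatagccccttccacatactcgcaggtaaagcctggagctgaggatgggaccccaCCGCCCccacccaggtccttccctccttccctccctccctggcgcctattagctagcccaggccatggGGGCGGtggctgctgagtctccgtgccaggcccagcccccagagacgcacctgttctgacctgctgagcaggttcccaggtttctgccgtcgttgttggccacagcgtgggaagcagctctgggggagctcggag

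The searches, on both strands, used TGANTCA for AP-1, GGAATG for TEAD, GGGCGG for the GC box and CACGTG for the E-box, and no matches overlapped. The PVR window held 1 TEAD match, at −182 to −177 from the start site, and no GC box. The NECTIN2 window held 3 GC boxes, which began at −246, −78 and −54. The NECTIN4 window held 2, beginning at −153 on the opposite strand and at −85. NECTIN3 had 5 GC boxes and AFDN had 1. The AP-1 and E-box letters were not in any of the 5 windows. Over 35116 promoter windows of this length, 7.71% held the AP-1 letters, 14.0% the TEAD letters, 45.0% a GC box and 7.26% the E-box. A match is a description of letters only.

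In Vector cells, EDTA was accompanied by lower PVR, AFDN and NECTIN2. PVR fell 1.90-fold to 30.8 ± 0.70 CPM in Vector EDTA, against 58.5 ± 1.18 CPM in Vector NA (SD, n = 2 each). AFDN fell 1.53-fold and NECTIN2 1.58-fold. Of the 6 genes, 0 rose, 3 fell and 3 did not pass the test, where 15.3% of all tested genes were called, 6.36% higher and 8.98% lower. The median log2 fold change was −0.60 over the 6 genes and 0.00 over all tested genes. Marker lists moved with this comparison too: the fibroblast list (1 of 4 tested genes called higher) summed to 28.4 and 29.03 CPM in Vector EDTA against 16.1 and 15.2 CPM in Vector NA, and the epithelial list (2 of 7 called lower) to 9357 and 9767 CPM in Vector EDTA against 12689 and 12800 CPM in Vector NA. Their part in these differences was not tested.

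Tests used edgeR's quasi-likelihood F statistic, adjusted by Benjamini and Hochberg's method over all tested genes and called under 0.05. The log2 fold change of EDTA over NA in Vector was −0.92 for PVR (SE 0.15, adjusted p = 0.00151). It was −0.61 for AFDN (SE 0.13, adjusted p = 0.00783) and −0.66 for NECTIN2 (SE 0.20, adjusted p = 0.0419). NECTIN1 had −0.59 (SE 0.19, adjusted p = 0.0614), NECTIN4 −0.47 (SE 0.34, adjusted p = 0.390) and NECTIN3 −0.01 (SE 0.20, adjusted p = 0.980). The AFDN call was lost without Vector EDTA 2 (adjusted p = 0.0506) or Vector NA 1 (adjusted p = 0.0560), in a range from 0.000548 over the 12 fits that each left out 1 library. The NECTIN2 call was lost without either library of Vector EDTA, Vector NA, B4-4 EDTA or Addback NA (adjusted p = 0.0613 to 0.238), in a range from 0.00226.

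In B4-4 cells, EDTA was accompanied by higher PVR and lower NECTIN4. PVR rose 2.38-fold, to 125 ± 2.97 CPM in B4-4 EDTA against 52.7 ± 8.17 CPM in B4-4 NA (SD, n = 2 each; log2 fold change 1.25, SE 0.14, edgeR adjusted p = 0.00027). NECTIN4 fell 2.61-fold (−1.38, SE 0.35, edgeR adjusted p = 0.0215). Of the 6 genes, 1 rose, 1 fell and 4 did not pass the test, where 19.9% of all tested genes were called, 9.88% higher and 10.0% lower. NECTIN3 had a log2 fold change of 0.44 (SE 0.20), AFDN 0.21 (SE 0.13), and NECTIN1 and NECTIN2 0.07 each (SE 0.19 each). The PVR call was kept without each of the 12 libraries, where its log2 fold change ran from 1.10 to 1.42. It was also kept under every other edgeR or DESeq2 alternative, with a highest adjusted p of 0.0325. The NECTIN4 call was lost without any one of the 4 B4-4 libraries (adjusted p = 0.0527 to 0.156), in a range from 0.000322. The endothelial marker PECAM1, the bulk of that list's sum, moved with this contrast: the list summed to 3.52 and 3.35 CPM in B4-4 EDTA and to 24.9 and 9.01 CPM in B4-4 NA, with CDH5 at 0 counts and VWF at no more than 4. In the same comparison, 1 of 4 fibroblast markers and 2 of 7 epithelial markers were called lower, and 0 of either list higher. The part of these markers was not tested.

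In Addback cells, 0 of the 6 genes rose or fell by edgeR, where 16.9% of all tested genes were called, 8.64% higher and 8.29% lower. At an unadjusted p under 0.05 the count was also 0, and DESeq2 called 0. PVR had a log2 fold change of 0.27 (SE 0.14, adjusted p = 0.212), with 78.9 ± 17.8 CPM in Addback EDTA and 65.3 ± 1.91 CPM in Addback NA (SD, n = 2 each). The duplicates decided this comparison in part. Without Addback EDTA 1 the PVR difference was 0.49 (edgeR adjusted p = 0.0224), and without Addback EDTA 2 the NECTIN4 difference was 0.79 (edgeR adjusted p = 0.0383), in ranges over the 12 fits up to 0.948 and 0.928. Over the mean of the 3 derivatives, EDTA against NA gave 0 calls among the 6 genes by edgeR, where 9.18% of all tested genes were called, 3.97% higher and 5.20% lower. There, 4 of the 6 genes had an unadjusted p under 0.05, and DESeq2 called NECTIN4 alone.

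The EDTA effects themselves differed between derivatives most clearly for PVR. B4-4 minus Vector was 2.17 on the log2 scale (SE 0.20, edgeR adjusted p = 3.38e-05), and Addback minus Vector was 1.20 (SE 0.20, edgeR adjusted p = 0.00142). Addback minus B4-4 was −0.98 (SE 0.20, edgeR adjusted p = 0.0119). These differences share libraries with each other and with the comparisons above, so they are not separate evidence. The first and second calls were kept without each library, with a highest adjusted p of 0.000578 and 0.0108. The third was lost without Addback NA 1 (adjusted p = 0.0678) or B4-4 EDTA 2 (adjusted p = 0.0527), in a range from 0.000978.

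AFDN was the other gene with a called difference of EDTA effects, 0.82 for B4-4 minus Vector (SE 0.18, edgeR adjusted p = 0.00639), kept without each library with a highest adjusted p of 0.0262. In that difference, 2 of the 6 genes were called, both higher, where 27.0% of all tested genes were called, 14.4% higher and 12.6% lower. In Addback minus Vector 1 of 6 was called, higher, where 24.2% of all genes were called, 13.4% higher and 10.8% lower. In Addback minus B4-4 1 of 6 was called, lower, where 8.78% of all genes were called, 4.22% higher and 4.57% lower. NECTIN4 had 1.61 for Addback minus B4-4 (SE 0.50) and did not pass the test (edgeR adjusted p = 0.0719). That value ran from 0.71 to 2.16 when 1 library was left out, and without Addback EDTA 2 it was called (2.16, edgeR adjusted p = 0.000741), in a range up to 0.236. Among the markers, 3 of 7 epithelial genes were called higher and 2 of 4 fibroblast genes lower both for B4-4 minus Vector and for Addback minus Vector, and their part in the differences above was not tested. NECTIN2 had 0.73 for B4-4 minus Vector (SE 0.28, adjusted p = 0.0689) and 0.81 for Addback minus Vector (SE 0.28, adjusted p = 0.0544).

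**Figure D3:**
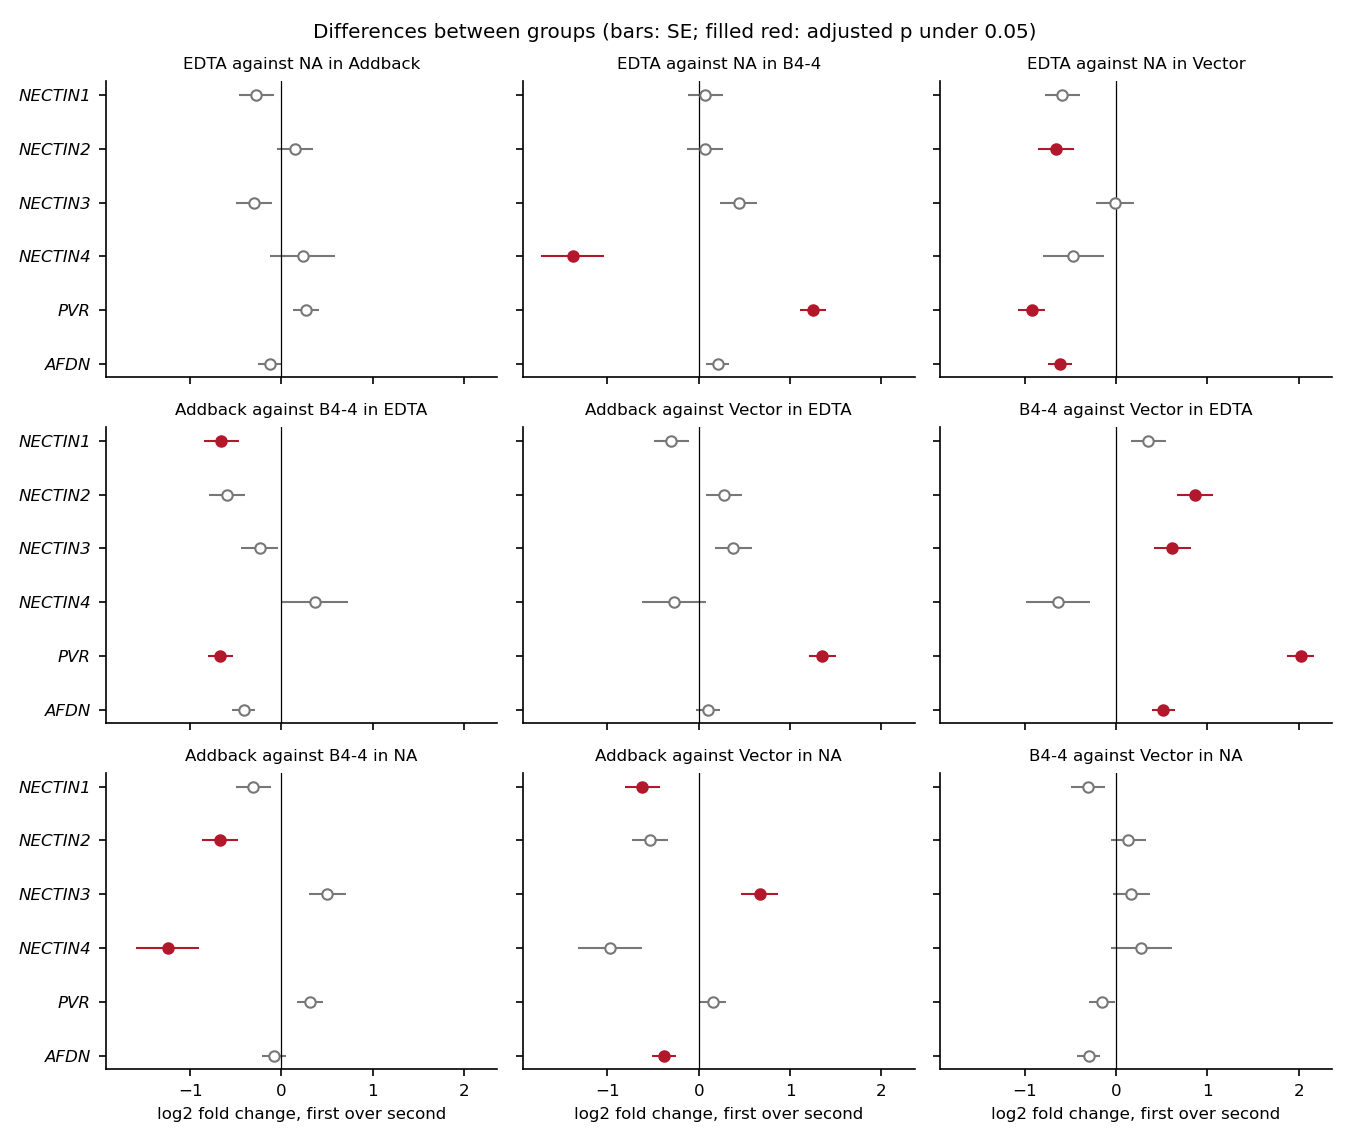
Log2 fold changes (x axis) of the 6 genes in the 9 pairwise comparisons, each panel naming its first group over its second. Bars are 1 SE and filled red points have an edgeR adjusted p under 0.05. PVR lies at 0.27 for EDTA over NA in Addback, at 1.25 in B4-4 and at −0.92 in Vector.

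Between derivatives under EDTA, B4-4 cells had more PVR, NECTIN2, NECTIN3 and AFDN than Vector cells. PVR rose 4.06-fold in B4-4 EDTA, at 125 ± 2.97 CPM against 30.8 ± 0.70 CPM in Vector EDTA (SD, n = 2 each; log2 fold change 2.02, SE 0.15, edgeR adjusted p = 1.85e-06). NECTIN2 rose 1.82-fold (0.87, SE 0.20, edgeR adjusted p = 0.00405), NECTIN3 1.53-fold (0.62, SE 0.20, edgeR adjusted p = 0.0257) and AFDN 1.43-fold (0.52, SE 0.13, edgeR adjusted p = 0.00641). Thus 4 of the 6 genes rose, 0 fell and 2 did not pass the test, where 43.4% of all tested genes were called, 22.9% higher and 20.4% lower. The median log2 fold change was 0.57 over the 6 genes and 0.00 over all tested genes. NECTIN1 had 0.36 (SE 0.19, adjusted p = 0.156) and NECTIN4 −0.64 (SE 0.35, adjusted p = 0.165).

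Without each library in turn, the PVR, NECTIN2 and AFDN calls of B4-4 against Vector in EDTA were kept, with highest adjusted p of 0.000127, 0.0429 and 0.0498. The NECTIN3 call was lost without B4-4 EDTA 1 (adjusted p = 0.197) or Vector EDTA 2 (adjusted p = 0.203), in a range from 0.0116, and its smallest value was 0.39. The endothelial marker sum was 3.52 and 3.35 CPM in B4-4 EDTA and 22.7 and 24.3 CPM in Vector EDTA. The fibroblast sum, with 2 of 4 tested genes called lower, was 14.7 and 14.1 CPM in B4-4 EDTA and 28.4 and 29.03 CPM in Vector EDTA. Of the 7 epithelial markers, 1 was called higher and 0 lower. The part of these markers in the differences was not tested.

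Addback cells under EDTA had a PVR level between those of the other derivatives. It rose 2.56-fold over Vector EDTA (log2 fold change 1.36, SE 0.15, edgeR adjusted p = 5.54e-05), the only one of the 6 genes called there, where 30.0% of all tested genes were called, 16.1% higher and 14.0% lower. That call was kept without each library. Beside it, 1 of 4 tested fibroblast markers was called higher and 0 lower, and of 7 epithelial markers 1 was called higher and 1 lower. Their part in the PVR difference was not tested. PVR fell 1.59-fold in Addback EDTA against B4-4 EDTA (−0.67, SE 0.14, edgeR adjusted p = 0.00880) and NECTIN1 fell 1.58-fold (−0.66, SE 0.19, edgeR adjusted p = 0.0442). Those were the 2 of 6 genes called in that comparison, where 14.1% of all tested genes were called, 6.54% higher and 7.54% lower. NECTIN2 had −0.59 (adjusted p = 0.0656) and AFDN −0.42 (adjusted p = 0.05001, just above the threshold). In the same comparison PECAM1 was called higher, with an endothelial sum of 34.3 and 11.7 CPM in Addback EDTA against 3.52 and 3.35 CPM in B4-4 EDTA. So were 2 of 4 fibroblast markers, with a sum of 34.7 and 65.5 CPM in Addback EDTA against 14.7 and 14.1 CPM in B4-4 EDTA, and 1 of 7 epithelial markers was called higher and 2 lower. Their part in the PVR and NECTIN1 differences was not tested.

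For Addback EDTA against B4-4 EDTA, the PVR call was lost without Addback EDTA 1 (adjusted p = 0.0667), B4-4 EDTA 1 (0.0576) or B4-4 EDTA 2 (0.0720), in a range from 0.000959. The NECTIN1 call was lost with upper-quartile scaling (adjusted p = 0.0648) or RLE scaling (0.0522), without Addback EDTA 2, and without either library of Addback NA, B4-4 EDTA, Vector EDTA or Vector NA (0.0685 to 0.220), in a range from 0.00140.

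Under NA, B4-4 and Vector cells gave 0 calls among the 6 genes by edgeR, where 7.16% of all tested genes were called, 3.38% higher and 3.78% lower. There, 1 of the 6 had an unadjusted p under 0.05, and DESeq2 called 0. PVR had a log2 fold change of −0.15 (SE 0.14, adjusted p = 0.556) and AFDN −0.30 (SE 0.13, adjusted p = 0.173). The wide B4-4 NA duplicates entered this comparison, and the NECTIN1 difference was −0.69 without B4-4 NA 1 (edgeR adjusted p = 0.00804) and −0.01 without B4-4 NA 2.

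Addback cells under NA had less NECTIN2 and NECTIN4 than B4-4 cells. NECTIN2 fell 1.59-fold (log2 fold change −0.67, SE 0.20, edgeR adjusted p = 0.0292) and NECTIN4 fell 2.37-fold (−1.25, SE 0.35, edgeR adjusted p = 0.0267). Of the 6 genes, 2 fell and 0 rose, where 23.6% of all tested genes were called, 11.3% higher and 12.3% lower. The NECTIN2 call was lost without Addback NA 1 (adjusted p = 0.173), Addback NA 2 (0.0970) or B4-4 NA 2 (0.196, where the difference was −0.31), and in a fit of these groups alone (0.122), in a range from 0.000527. The NECTIN4 call was lost without either library of Addback NA, B4-4 NA or Vector EDTA (adjusted p = 0.0503 to 0.164), in a range from 0.000321. Beside these, the leukocyte list (1 of 2 tested genes called higher) summed to 56.7 and 48.5 CPM in Addback NA against 15.3 and 14.2 CPM in B4-4 NA, and the fibroblast list (2 of 4 called higher) to 45.9 and 47.1 CPM in Addback NA against 18.1 and 30.0 CPM in B4-4 NA. The epithelial list, with 3 of 7 genes called lower and 1 higher, summed to 8515 and 8204 CPM in Addback NA against 9872 and 10010 CPM in B4-4 NA. Their part was not tested.

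Against Vector NA, Addback NA had higher NECTIN3 and lower NECTIN1 and AFDN. NECTIN3 rose 1.59-fold (log2 fold change 0.67, SE 0.20, edgeR adjusted p = 0.0218), NECTIN1 fell 1.53-fold (−0.62, SE 0.19, edgeR adjusted p = 0.0277) and AFDN fell 1.30-fold (−0.38, SE 0.13, edgeR adjusted p = 0.0366). Thus 1 of the 6 rose and 2 fell, where 36.1% of all tested genes were called, 17.9% higher and 18.1% lower. NECTIN4 (−0.97, adjusted p = 0.0511) and NECTIN2 (−0.53, adjusted p = 0.0525) lay just above the threshold, and PVR had 0.16 (adjusted p = 0.412). Every one of these calls was lost without either library of Addback NA or Vector NA, at adjusted p up to 0.225. NECTIN1 was also lost without either library of B4-4 EDTA (0.0570 and 0.0568) or Vector EDTA (0.0585 and 0.0584), and AFDN without either B4-4 EDTA library (0.0506 and 0.0505). In the fibroblast marker list, 4 of 7 genes were tested and all 4 were called higher. It summed to 45.9 and 47.1 CPM in Addback NA against 16.1 and 15.2 CPM in Vector NA. In the leukocyte list, 2 of 5 genes were tested and both were called higher. It summed to 56.7 and 48.5 CPM in Addback NA against 13.3 and 14.7 CPM in Vector NA, most of it CD14. Of the 7 epithelial markers, 5 were called lower and 1 higher. Their part in these differences was not tested.

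The list of nectin and afadin partners held 19 genes, all tested, among them the genes of the afadin-binding proteins LMO7 and SSX2IP. In B4-4 EDTA against Vector EDTA, 9 rose, 3 fell and 7 did not pass the test, where 22.9% of all tested genes were called higher and 20.4% lower, with a median log2 fold change of 0.28 over the list and 0.00 over all genes. Leaving out 1 library gave 5 to 11 higher and 1 to 4 lower. PLEKHA7, which links the p120-catenin and afadin complexes at the junction, had 20.8 and 22.8 CPM in B4-4 EDTA against 8.52 and 8.64 CPM in Vector EDTA (log2 fold change 1.34, SE 0.16, edgeR adjusted p = 5.78e-05). The tyrosine kinase gene SRC rose by 0.88 (edgeR adjusted p = 0.000349) and the exchange factor gene VAV2 by 0.60 (0.000901), and the polarity gene PARD3 had −0.55 (0.000529). These 4 calls were kept without each library.

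In Vector, 1 of the 19 partner genes rose with EDTA against NA and 2 fell, a share near the 15.3% called over all tested genes, with a median of 0.05 (0 to 2 higher and 2 to 3 lower without 1 library). PLEKHA7 had 8.52 and 8.64 CPM in Vector EDTA against 18.6 and 16.8 CPM in Vector NA (log2 fold change −1.04, SE 0.16, edgeR adjusted p = 0.00139), and LMO7 37.9 and 35.5 CPM in Vector EDTA against 83.3 and 81.8 CPM in Vector NA (−1.17, edgeR adjusted p = 0.00108). RAPGEF1, an exchange factor for RAP1, rose by 0.39 (edgeR adjusted p = 0.0119), a call lost without Vector EDTA 2 (0.0739), Vector NA 1 (0.132) or Vector NA 2 (0.0963). In B4-4, 4 partner genes rose with EDTA and 1 fell, where 9.88% of all tested genes were called higher and 10.0% lower, with a median of 0.17 (1 to 7 higher and 0 to 2 lower without 1 library). In Addback 4 rose and 2 fell, where 8.64% of all were called higher and 8.29% lower, with a median of 0.00 (1 to 6 higher and 1 to 2 lower). SRC had 118 and 120 CPM in B4-4 EDTA against 58.1 and 80.7 CPM in B4-4 NA (log2 fold change 0.78, edgeR adjusted p = 0.00297). That call was kept without each library and lost in a fit of the B4-4 groups alone (adjusted p = 0.0746), the highest of its alternatives.

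The cadherin and catenin list held 9 genes, all tested, of which CDH1 is also among the 7 epithelial markers. Beside cadherins and catenins, it held VCL, TJP1 and F11R. In B4-4 EDTA against Vector EDTA, 6 rose and 0 fell, where 22.9% of all tested genes were called higher and 20.4% lower, with a median of 0.50 (5 to 6 higher without 1 library). CDH1, which encodes E-cadherin, had 443 and 469 CPM in B4-4 EDTA against 200 and 192 CPM in Vector EDTA (log2 fold change 1.22, SE 0.16, edgeR adjusted p = 0.000143). CDH3, which encodes P-cadherin, had 815 and 851 CPM in B4-4 EDTA against 442 and 454 CPM in Vector EDTA. In Vector, 3 of the 9 fell with EDTA against NA (CDH1, CDH3 and CTNND1, the p120-catenin gene) and 0 rose, against 8.98% lower and 6.36% higher over all tested genes, with a median of −0.05 (1 to 3 lower without 1 library). In B4-4, 3 rose (the vinculin gene VCL, the beta-catenin gene CTNNB1 and CTNND1) and 0 fell, against 9.88% higher and 10.0% lower over all, with a median of 0.30 (1 to 4 higher). The VCL call was kept without each library, the CTNNB1 call was lost without B4-4 EDTA 1 (adjusted p = 0.0890) or B4-4 EDTA 2 (0.133), and the CTNND1 call was kept in 3 of the 12 fits that left out 1. In Addback, 3 fell and 0 rose, against 8.29% lower and 8.64% higher over all, with a median of −0.07 (1 to 4 lower). In Addback EDTA against B4-4 EDTA 6 of the 9 fell and 0 rose, where 7.54% of all tested genes were called lower and 6.54% higher (3 to 7 lower without 1 library). In Addback EDTA against Vector EDTA 0 were called by edgeR, where 30.0% of all tested genes were called. TJP1 had 132 and 157 CPM in Addback EDTA against 318 and 275 CPM in Addback NA. VCL (252 and 323 against 479 and 410 CPM), F11R and CTNND1 were also lower in both Addback EDTA libraries than in both Addback NA libraries. CTNNA1 was slightly higher in both (763 and 860 against 759 and 760 CPM), and CDH1, CDH3, CTNNB1 and JUP overlapped. These orderings of duplicates are a description, apart from the 3 calls, and their share over all tested genes was not computed. The calls on CDH1 and CDH3 for EDTA against NA in Vector were lost without Vector EDTA 1 (adjusted p = 0.0554 and 0.0531).

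**Figure D4:**
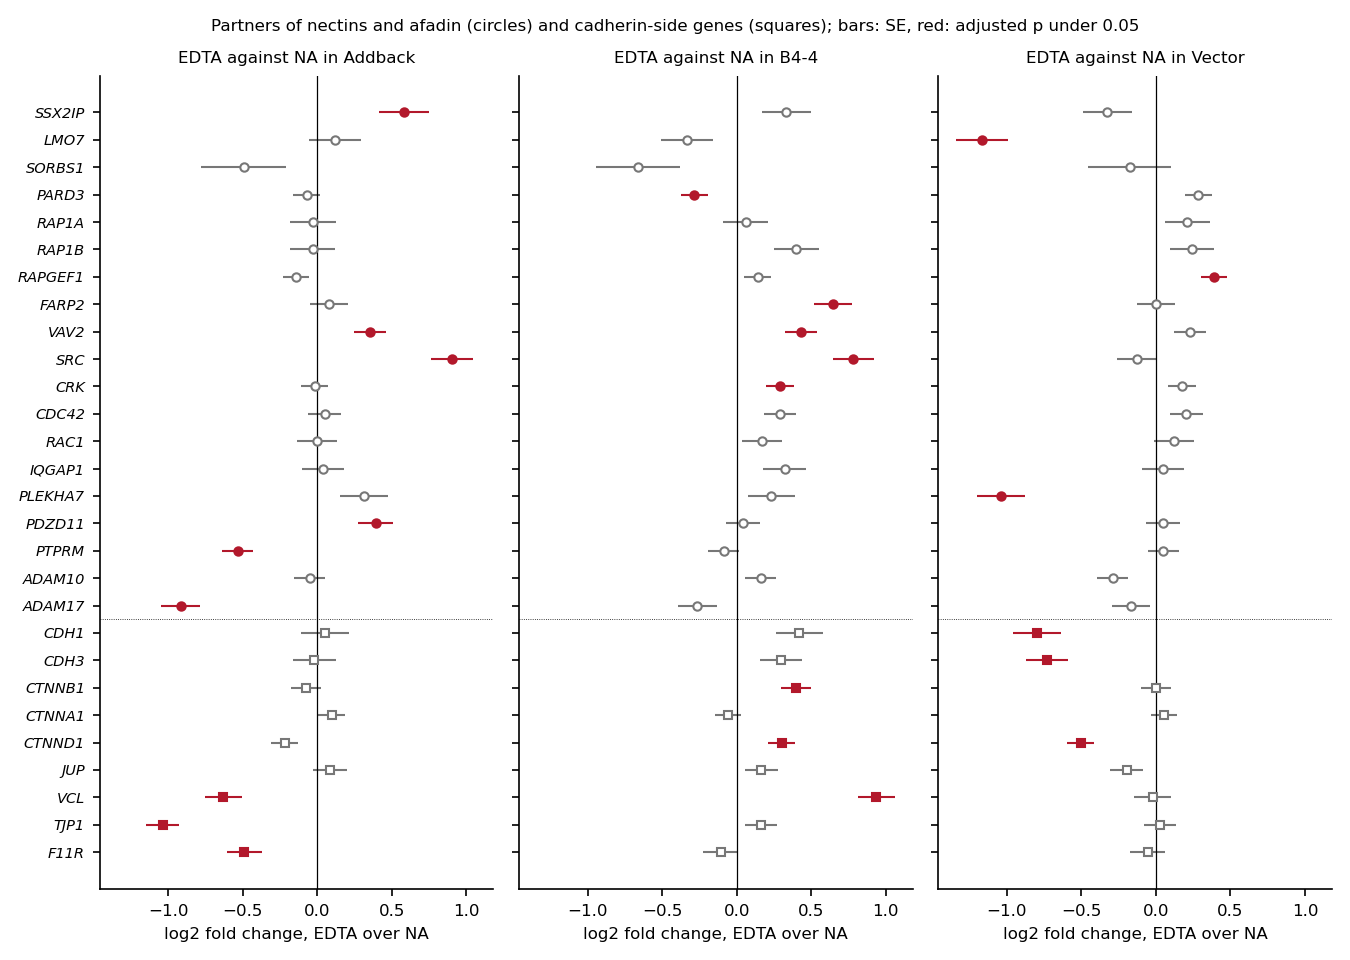
Log2 fold change of EDTA over NA (x axis) for the 19 partner genes (circles) and 9 cadherin-side genes (squares), with a panel each for Addback, B4-4 and Vector. Bars are 1 SE and red marks an edgeR adjusted p under 0.05. PLEKHA7 lies at −1.04 and LMO7 at −1.17 in Vector, and SRC at 0.91 in Addback and 0.78 in B4-4.

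Of 5 further nectin-like genes, CADM1, CADM2 and CRTAM had at most 5 counts in any library and were not tested. CADM3, which encodes a nectin-like adhesion molecule known from neurons, had 9.24 and 30.1 CPM in Addback EDTA and 26.9 and 26.0 CPM in Addback NA. It had 0.259 and 0.266 CPM in B4-4 EDTA (5 counts each), 0.861 and 1.79 CPM in B4-4 NA, 1.07 and 1.02 CPM in Vector EDTA, and 1.35 and 0.771 CPM in Vector NA. All 4 Addback libraries lay above all other libraries. The log2 fold change was 6.19 for Addback over B4-4 in EDTA (SE 0.71, edgeR adjusted p = 0.000708), 4.23 over Vector in EDTA (SE 0.57, adjusted p = 0.000722), 4.33 over B4-4 in NA (SE 0.57, adjusted p = 0.00101) and 4.64 over Vector in NA (SE 0.58, adjusted p = 0.000342). All 4 calls were kept without each library. The fibroblast marker sum was also highest in Addback, at 34.7 and 65.5 CPM in Addback EDTA against 14.7 and 14.1 CPM in B4-4 EDTA and 28.4 and 29.03 CPM in Vector EDTA, and its part in the CADM3 difference was not tested. CADM4, the other nectin-like gene tested, fell in B4-4 EDTA against Vector EDTA (−1.03, SE 0.24, edgeR adjusted p = 0.00440), a call lost without B4-4 EDTA 2 (0.0650).

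The lymphocyte receptors that bind PVR and nectins were at or near the limit of detection. TIGIT had at most 1 count in a library, PVRIG 2 and CD96 7, and CD226, the only one tested, had 2 to 25 counts. By edgeR, CD226 was called higher in B4-4 NA and in Addback NA than in Vector NA (log2 fold change 3.18 and 3.09). Its EDTA effect was called lower for B4-4 minus Vector (−3.35) and Addback minus Vector (−2.87). Each of these calls was lost without some single library, and CD226 had 2 counts in each Vector NA library. A count of 3 corresponded to 0.133 to 0.192 CPM.

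Across the 12 libraries, which fall into 6 groups and share their scaling, the 6 genes followed each other only in part. Pearson's r of log2 CPM was 0.79 for NECTIN2 with AFDN, 0.66 for NECTIN3 with PVR, −0.54 for NECTIN4 with PVR and −0.69 for NECTIN3 with NECTIN4. Among 10445 tested genes averaging 5 CPM or more, those most like PVR were SLC35D1 (0.99), TNRC6A (0.98) and EDN1 (0.98). EDN1, which encodes the peptide endothelin-1, ranged from 1.44 to 17.3 CPM. Those most like NECTIN2 were ST14, which encodes the membrane protease matriptase (0.96), PPP1R14C (0.95) and PLEKHA7 (0.95). AFDN was most like the tight-junction gene CLDN1 (0.92), MACC1 (0.91) and PACSIN2 (0.91). NECTIN1 was most like TRERF1 (0.92), LYPD3 (0.91) and MAST4 (0.90), NECTIN3 most like MBD2 (0.94), CHAC2 (0.94) and TMEM165 (0.93), and NECTIN4 most like MPI (0.92), LMTK3 (0.91) and TFB1M (0.91). These are descriptions, since the libraries of a group are not independent conditions.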

How the data were processed

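The authors deposited 1 table of raw counts of reads for each Ensembl gene, as whole numbers, for 12 libraries (2 per group). Per the labels' protocols, 150 bp paired-end reads came from a stranded polyA kit. The submitters' processing notes name the tools TopHat2 2.1.1, SAMtools 1.4.1 and featureCounts 1.5.3, and the builds GRCh38, hg19 and hg38 with no roles. The strand setting of the counting is not given in the sources used here; antisense genes overlapping the 6 genes had at most 6 counts. Of 58233 identifiers, 57895 matched GENCODE 29 (GRCh38), which gave symbols, coordinates and exonic lengths.

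In R 4.3.3, edgeR 4.0.16 was used with filterByExpr over the 6 groups (15749 genes left), TMM factors, group means fitted to all 12 libraries, robust quasi-likelihood tests and 13 contrasts. Each SE is the size of the log2 fold change over the root of F, and adjusted p-values use Benjamini-Hochberg over all tested genes. CPM values were computed here. The test was tried on simulated data that gave each gene the same spread in every group. The duplicates here differed in spread between groups, so that trial does not cover this inequality. Alternatives were upper-quartile and RLE factors, DESeq2 1.42.0, a test with no filter, a block for the replicate number, the compared groups alone and leaving out each library; a fit without the groups B4-4 NA and Addback EDTA was chosen after seeing the data. The members and lists were chosen with earlier results of these data known. The rule for names took the 6 genes, ITGB4, the 3 genes most like each by Pearson's r, and up to 4 called genes per list and contrast by smallest p. Promoter windows are RefSeq's. Floors of 3 counts cover counting error only.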

Additional observations from a re-analysis of the deposited data

Results flagged for a closer look

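The EDTA effect on PVR differed between derivatives by a test of the difference itself: by 2.17 on the log2 scale for B4-4 minus Vector, 1.20 for Addback minus Vector and −0.98 for Addback minus B4-4 (edgeR adjusted p = 3.38e-05, 0.00142 and 0.0119). In both Vector EDTA libraries PVR was below both Vector NA libraries, and in both B4-4 EDTA libraries it was above both B4-4 NA libraries. The EDTA effect on AFDN differed by 0.82 for B4-4 minus Vector (edgeR adjusted p = 0.00639).

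For NECTIN3, both B4-4 EDTA libraries lay above both B4-4 NA libraries and both Addback EDTA libraries lay below both Addback NA libraries. The difference of EDTA effects, Addback minus B4-4, was −0.74 and did not pass the test (edgeR adjusted p = 0.124).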

How the results depend on the processing

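Of 78 results (6 genes in 13 contrasts), 21 were called; 9 of these were kept without each library and 19 under every other alternative, and 34 uncalled results were called under some setting. Every count of the 6 genes called that moved under an alternative other than leaving out 1 library is given here. For EDTA against NA in Vector (3), they were 4 with no filter, 4 by DESeq2, 5 in the compared groups alone and 5 without the groups B4-4 NA and Addback EDTA. For B4-4 against Vector in EDTA (4), they were 6 with no filter, 6 in the compared groups alone and 6 without those 2 groups. For Addback against B4-4 in NA (2), they were 4 with no filter and 1 in the compared groups alone. For Addback against Vector in NA (3), they were 5 with no filter, 5 by DESeq2, 5 with the replicate block, 6 in the compared groups alone and 5 without those groups. For Addback against B4-4 in EDTA (2), they were 1 with upper-quartile factors, 4 with no filter, 4 by DESeq2, 3 with the replicate block and 3 in the compared groups alone, and for Addback against Vector in EDTA (1), 2 with no filter. For EDTA over the mean of the derivatives (0), they were 2 with no filter and 1 by DESeq2. For the differences of EDTA effects, B4-4 minus Vector (2) had 5 with no filter, 3 with the replicate block and 3 in the compared groups alone. Addback minus B4-4 (1) had 3 with no filter and 2 by DESeq2. Addback minus Vector (1) had 3 with no filter, 2 by DESeq2, 2 with the replicate block and 3 in the compared groups alone. The replicate numbers showed no sign of pairing the samples, though the labels do not say how the duplicates were made. The deviations of replicate 1 from its group mean, gene by gene, correlated at −0.05 to 0.07 over 15 pairs of groups. The block changed 5 results, all to called. With upper-quartile factors, NECTIN3 turned to 0.0189 for EDTA in Vector and NECTIN2 to −0.00527 for EDTA in B4-4, neither called. The causes were not tested.

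Leaving out 1 library gave 1 to 4 genes called for EDTA in Vector, 1 to 2 in B4-4 and 0 to 1 in Addback, 0 to 3 over the mean, 0 to 1 for B4-4 against Vector in NA, 0 to 2 for Addback against B4-4 and 0 to 5 for Addback against Vector in NA, 0 to 4 for Addback against B4-4 and 1 to 3 for Addback against Vector in EDTA, and 2 to 4 (B4-4 minus Vector), 0 to 3 (Addback minus B4-4) and 1 to 3 (Addback minus Vector) for the differences of EDTA effects. Log2 values that changed sign without 1 library ran, for EDTA against NA, from −0.27 to 0.21 (NECTIN3) in Vector; −0.22 to 0.45 (NECTIN1) and −0.23 to 0.44 (NECTIN2) in B4-4; −0.10 to 0.37 (NECTIN2), −0.67 to 0.79 (NECTIN4) and −0.31 to 0.0393 (AFDN) in Addback; and −0.0577 to 0.13 (NECTIN3) over the mean. Between derivatives they ran from −0.23 to 0.43 (NECTIN2, B4-4 against Vector in NA), −0.62 to 0.0836 (NECTIN1) and −0.20 to 0.0585 (AFDN, both Addback against B4-4 in NA), −0.55 to 0.00652 (NECTIN3) and −0.54 to 0.91 (NECTIN4, both Addback against B4-4 in EDTA), and −1.18 to 0.28 (NECTIN4) and −0.0795 to 0.27 (AFDN, both Addback against Vector in EDTA). For differences of EDTA effects they ran from −0.29 to 0.37 (NECTIN2, Addback minus B4-4) and −0.20 to 1.26 (NECTIN4, Addback minus Vector). None of these was called in the fit over all libraries.

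Over all tested genes, 291 instead of 3138 were called for EDTA in B4-4, and 6 instead of 1128 for B4-4 against Vector in NA, when the compared groups were fitted alone, 4672 instead of 2416 for EDTA in Vector, 1290 instead of 3723 for Addback against B4-4 and 9318 instead of 5681 for Addback against Vector in NA, and 641 instead of 1383 for Addback minus B4-4. With no filter, 1874 were called for B4-4 against Vector in NA, 2196 instead of 1445 over the mean and 2103 for Addback minus B4-4. Without the groups B4-4 NA and Addback EDTA, 5653 were called for EDTA in Vector. Leaving out 1 library gave 724 to 4020 calls for EDTA in Vector, 726 to 4549 in B4-4 and 615 to 4319 in Addback. With upper-quartile factors the share of higher calls moved to 36.8% against 49.6% for EDTA in B4-4, to 32.6% against 43.3% over the mean, and to 42.0% against 53.4% for B4-4 minus Vector, where the median of all genes moved to −0.12.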
